A study of Mus musculus with 65 samples.

Results

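The histone genes studied here were those that the deposited gene tables named with the symbols of the histone clusters, and their nascent transcription was read by PRO-seq in mouse erythroleukemia cells. Members were taken by symbol alone: every gene in the table of the A485 series whose symbol began with H1f, H2ac, H2bc, H3c or H4c, each followed through whichever of its transcripts had the highest mean. This rule gave 7 of 15020 gene symbols, namely the linker histone genes H1f0 and H1f8 and the H2B genes H2bc4, H2bc6, H2bc21, H2bc22 and H2bc23. No H2A, H3 or H4 gene was among them, so the core histones were represented by H2B only. The label "histone genes of the clusters" fitted 5 of the 7: H2bc4, H2bc6, H2bc22 and H2bc23 lie in the large cluster on chromosome 13 and H2bc21 in the smaller cluster on chromosome 3, while H1f0 (chromosome 15) and H1f8 (chromosome 6) lie outside the clusters. In the RefSeq gene table (assembly GRCm38.p6, used for names and lengths) 70 genes bear such symbols, and 61 of them span less than 1000 bp. None of those 61 was in the deposited tables, where only 3 of the 15007 symbols found in RefSeq had so short a span. The members are therefore the histone genes with long annotated transcripts, and the short, typical genes of the clusters were not analysed here.

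PRO-seq labels the RNA that engaged polymerases are extending, so that its reads report transcription in progress and not the amount of stable mRNA. All 65 libraries came from MEL cells, a murine erythroleukemia line, whose corepressor Mtg16 carried an FKBP degradation tag and 2 HA tags (Mtg16-FKBP-2XHA), and controls received DMSO. Whether the line was 1 clone is not given in the sources used here. The degrader was 250 nM dTAGV1, which directs FKBP-tagged protein to the proteasome, A485 (10 µM) inhibits the acetyltransferases p300 and CBP, and LBH589 (5 nM, panobinostat) inhibits histone deacetylases. In the A485 series, cells were given DMSO, degrader alone, A485 alone or the 2 combined, each agent for 15 min, 30 min and 1 h, with 3 libraries a group except for 2 at 30 min of A485 and of the combination. The time course had DMSO and 15 min, 30 min and 1 h of degrader (3 libraries each), 2 h of degrader (2 libraries), and 30 min, 1 h or 2 h of washout, which followed 2 h of degrader. Cells of the LBH589 series got DMSO or LBH589 for 30 min or 1 h, and those of the LBH589 washout series had been through the 2 h degrader treatment, were exposed to LBH589 as well (its timing is not given) and were collected 30 min or 1 h into the washout. Both have 3 libraries a group, and the washout series has no DMSO group of its own. The series asks how Mtg16 establishes and maintains repression, and the comparisons below ask how the histone genes responded when it was removed, when p300 and CBP or the deacetylases were inhibited, and when the degrader was washed out.

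Nucleosomes wrap DNA around an octamer of H2A, H2B, H3 and H4, and linker histones of the H1 family bind where DNA enters and leaves. The cluster genes are switched on together in S phase, in a nuclear body organised by NPAT, and their messages end in a stem loop bound by SLBP in place of a poly(A) tail. Some H2B genes also make longer, polyadenylated transcripts. H1f0 encodes H1.0, a replacement linker histone that rises in cells that stop dividing and is known to be induced when erythroleukemia cells differentiate or are treated with deacetylase inhibitors. H1f8 encodes the linker histone of the oocyte.

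The promoter windows (250 bases before to 50 after the start site, RefSeq, GRCm38.p6) are shown for the linker member with the highest level, for the H2B member whose transcription fell most and for the H2B member with the most reads, which has 2 annotated starts. Capitals mark exact matches, on either strand, to the CCAAT box (bound by NF-Y), the TATA element TATAAA and the octamer ATTTGCAT (bound by the POU factor Oct-1).
H1f0 (chr15:79027962-79028261, plus strand): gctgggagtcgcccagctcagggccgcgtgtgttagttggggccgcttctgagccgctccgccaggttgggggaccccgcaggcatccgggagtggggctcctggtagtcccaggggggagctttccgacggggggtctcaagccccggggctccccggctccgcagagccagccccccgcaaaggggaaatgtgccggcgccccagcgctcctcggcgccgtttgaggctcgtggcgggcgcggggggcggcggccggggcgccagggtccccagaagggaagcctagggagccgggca
H2bc22 (chr13:21787238-21787537, plus strand): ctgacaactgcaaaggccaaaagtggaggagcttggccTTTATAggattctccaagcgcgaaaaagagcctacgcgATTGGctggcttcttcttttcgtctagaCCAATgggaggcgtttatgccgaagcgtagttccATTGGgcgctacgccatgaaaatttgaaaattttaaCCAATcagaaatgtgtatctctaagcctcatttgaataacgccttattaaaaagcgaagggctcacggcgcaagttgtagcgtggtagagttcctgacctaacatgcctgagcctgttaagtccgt
H2bc6, first start (chr13:23585921-23586220, minus strand): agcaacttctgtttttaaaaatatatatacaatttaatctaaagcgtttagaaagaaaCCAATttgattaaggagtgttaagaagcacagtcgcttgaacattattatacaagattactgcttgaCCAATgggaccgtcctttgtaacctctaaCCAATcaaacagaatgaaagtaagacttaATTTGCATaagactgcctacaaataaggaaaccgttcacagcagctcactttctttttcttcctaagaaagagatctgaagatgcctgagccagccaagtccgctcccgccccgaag
H2bc6, second start (chr13:23621045-23621344, minus strand): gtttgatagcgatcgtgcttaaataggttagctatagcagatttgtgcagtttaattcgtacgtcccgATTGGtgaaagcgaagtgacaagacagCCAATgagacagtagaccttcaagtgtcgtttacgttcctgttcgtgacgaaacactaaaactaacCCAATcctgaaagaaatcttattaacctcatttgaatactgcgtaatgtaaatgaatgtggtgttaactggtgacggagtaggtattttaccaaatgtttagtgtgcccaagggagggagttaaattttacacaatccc
RefSeq windows were at hand for 6 starts of 5 members (H1f0, H1f8, H2bc22, H2bc23 and H2bc6 with 2 starts). H2bc6 and H2bc22 each held several CCAAT matches, and the H1f0 window held none. CCAAT was found in 5 of these 6 windows, in 100% of the 15 H2B windows, in 82.5% of the 63 histone windows and in 37.4% of all 32851 windows of this length. The octamer ATTTGCAT was in 1 of 6, at the first H2bc6 start (positions -67 to -60 from the start), against 46.7% of H2B windows and 1.74% of all windows. TATAAA was in 1 of 6 (H2bc22, on the opposite strand), against 46.7% of H2B windows and 13.6% of all. GGTCC, part of a histone promoter element and not capitalised above, was in 4 of 6 windows, 33.3% of H2B windows and 45.5% of all. These are matches of letters, not measured sites. The windows of H2bc22 and its neighbour H2bc23 were the most alike of the 15 pairs, with 67.5% identity over 308 aligned columns.

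The values are DESeq2-normalized counts deposited by the authors, and levels between genes are compared only after division by the gene's RefSeq span in kb, since the interval that was counted is not stated. In DMSO of the A485 series H1f0 was highest, at 390 ± 13.6 per kb (SD, n = 3), and H2bc21 followed at 343 ± 21.3. H2bc6 (176 ± 2.71 per kb) and H2bc4 (173 ± 3.59 per kb) overlapped, and H2bc22 lay at 23.1 ± 3.31 per kb. The order rests on the spans used as divisors. That of H2bc6 covers both of its annotated starts, and with a shorter counted interval its level per kb would be higher in every experiment. In DMSO of the LBH589 series H1f0 (601 ± 15 per kb) and H2bc21 (427 ± 13.2 per kb) again led, H2bc4 (187 ± 4.06 per kb) and H2bc6 (181 ± 9.03 per kb) overlapped, and in the time course H1f0 (477 ± 91.9 per kb) and H2bc21 (476 ± 58.7 per kb) could not be ordered. H1f8 was near the limit of detection in all experiments, with a mean between 2.68 and 7.02 normalized counts, and H2bc23 had 1 read over all libraries used. Both fell below the mean of 10 required for testing, which left 5 tested members: H1f0, H2bc4, H2bc6, H2bc21 and H2bc22. H2bc6 spans 37455 bp in RefSeq, against 14079 bp for H2bc22, 8282 bp for H2bc4, 2667 bp for H2bc21 and 2293 bp for H1f0, and it made up most of the summed H2B counts: between 69.9% and 89.4% in the 28 libraries of the A485 series and between 63.4% and 81.6% in the time course.

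Reads that match several paralogs could be split or lost. The checks here look at transcripts placed at more than 1 position and at equal values, and neither measures reads shared between different genes. Of 762 transcript rows placed at more than 1 position, 703 (92.3%) were at 0 in every library of the A485 series, against 0.909% of the 25095 rows placed at 1 position. No 2 different members had equal values above 0, and the 2 rows of H2bc6 differed by at most 0.798 normalized counts. Of the members' RefSeq spans, only that of H2bc6 overlapped another gene (Gm33387, a long non-coding RNA that is in none of the tables), and use of strand in the counting is not given. How much of any member's count came from a near-identical paralog was not tested.

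Depth, recovered from the values, ran from 7.45 to 62.0 M reads per gene library in the A485 series, from 16.2 to 62.4 M reads in the time course, from 28.1 to 44.8 M reads in the LBH589 series and from 13.5 to 29.1 M reads in the LBH589 washout series. Of 11 listed erythroid and MEL markers, Spi1 among them, 9 were in the tables and 8 had a mean of at least 10. Their sum per library ran from 3970 to 19500 normalized counts in the A485 series. There Gata1 lay between 195 and 3430 and Tal1 between 919 and 3870. Alas2 lay between 10.9 and 736, and the globin gene Hbb-bt between 2.55 and 56.7. Of 4 listed megakaryocyte markers 3 were in the tables, and their sum ran from 418 to 3130 in the A485 series, from 4850 to 6570 in the time course, from 2890 to 5100 in the LBH589 series and from 1600 to 1990 in the LBH589 washout series. The summed lymphoid markers and the summed myeloid markers each stayed at or below 199 in every library. In the time course 15 min degrader replicate 2 lay nearest to a library labelled degrader for 2 h (root mean square log2 difference over genes 0.234, against 0.405 to its own group), 30 min degrader replicate 3 nearest to a 30 min washout library (0.246 against 0.539), and 30 min washout replicate 3, over dREG sites, nearest to a 30 min degrader library (0.417 against 0.638). In the LBH589 washout series 1 h washout replicate 3 lay 0.533 over genes and 0.862 over sites from the nearest library of its group, against 0.278 and 0.452 for its group mates, and that group is given with and without it. Smaller margins were seen elsewhere, for example 0.198 against 0.231 for A485 15 min replicate 5, which lay nearest to a library of both agents at 15 min. A485 1 h replicate 1, the shallowest gene library (7.45 M reads), lay 0.898 over sites from the nearest library of its group. It lay 0.861 from a library of A485 at 30 min. The libraries of A485 alone at 30 min and 1 h had 7.45 to 16.9 M gene reads, against 21.4 to 27.3 M in DMSO. Results that rest on these 3 time course libraries are given with and without them; 30 min washout replicate 3 entered the site tests only, so that the gene tests lose 2 libraries. For 5 time course libraries, those of degrader for 1 h and 2 h, the library name says degrader but the title says A485, so their groups are named as the libraries labelled degrader for 1 h or for 2 h. No label says that replicates came from separate cultures, so p-values measure the spread between these libraries only.

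Removal of Mtg16 for 1 h in the A485 series was accompanied by lower transcription of every tested member. H2bc22, H2bc4 and H2bc21 fell most, H1f0 less, and H2bc6 least. H2bc22 had 359, 345 and 272 normalized counts in DMSO and 51.2, 101.0 and 43.1 after 1 h of degrader. H2bc4 went from 1460, 1403 and 1446 to 392, 442 and 288, and H2bc21 from 969, 916 and 856 to 222, 314 and 206. In none of these 3 genes did the groups overlap. H2bc22 fell by 2.39 on the log2(value + 1) scale (SE 0.23, adjusted p = 5.30e-10), and no other gene of the 12597 tested fell further. The fall of H2bc4 was 1.96 (SE 0.13, adjusted p = 1.54e-13) and that of H2bc21 was 1.90 (SE 0.17, adjusted p = 6.54e-11).

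H1f0, the member outside the clusters, had 908, 914 and 858 normalized counts in DMSO and 578, 614 and 502 after 1 h of degrader. The groups did not overlap, and the fall was 0.66 (SE 0.07, adjusted p = 1.78e-08). H2bc6 had 6485, 6603 and 6687 in DMSO and 4787, 5715 and 4550 with degrader, also without overlap, and it fell by 0.40 (SE 0.11, adjusted p = 0.00565). All 5 tested members were thus called lower, where 10.9% of all genes tested were. The median change of the 5 was -1.90 and that of all genes -0.00. In bulk libraries such as these, fewer cells transcribing a gene and less transcription per cell cannot be told apart.

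More members were called at the later times, though no test between times of degrader was run. At 15 min of degrader 3 members were lower, against 5.80% of all genes, at 30 min 4 were, against 9.23%, and the count was 5 at 1 h. H2bc4 had reached 611, 787 and 751 by 15 min, already apart from DMSO (log2 change -1.01, SE 0.13, adjusted p = 8.00e-07), and stood at 631, 814 and 542 at 30 min (-1.14, SE 0.13). H2bc22 changed by -0.89 (SE 0.23) at 15 min and by -1.52 (SE 0.23) at 30 min, and H2bc21 by -0.75 (SE 0.17) and -1.14 (SE 0.17). H1f0 was not called at 15 min (-0.19, SE 0.07, adjusted p = 0.0874) and was lower at 30 min (-0.51, SE 0.07). H2bc6 was not called at either time, with changes of -0.13 (SE 0.11) and -0.09 (SE 0.11).

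**Figure D1:**
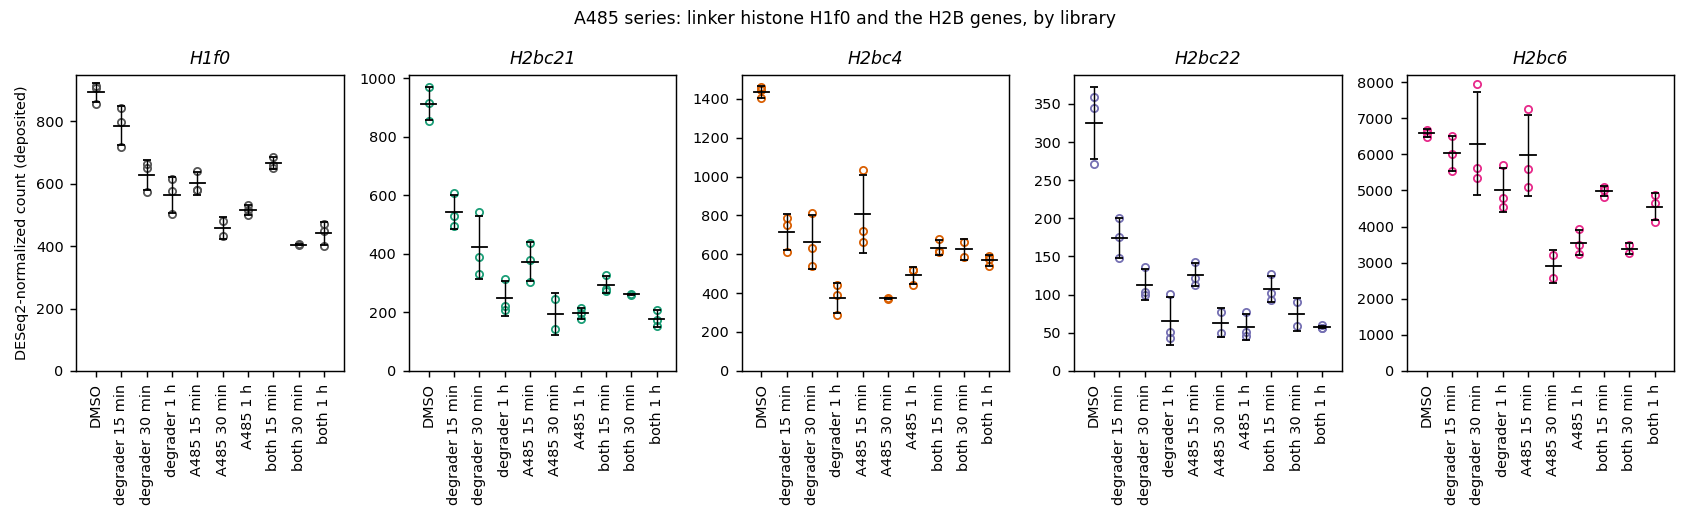
Deposited DESeq2-normalized counts (vertical axes, each from 0) of H1f0, H2bc21, H2bc4, H2bc22 and H2bc6 in the 10 groups of the A485 series. Circles are libraries, bars are group means and whiskers are the SD. H2bc22, H2bc4 and H2bc21 stand apart from DMSO in every treated group, whereas H2bc6 at 15 and 30 min of degrader reaches into the DMSO range or beside it.

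Because the members differed in size of change, the log2 ratio of each pair was compared within libraries, over 10 pairs. In 3 against 3 libraries the exact permutation test cannot go below p = 0.10 (two-sided), so that no pair can pass. Relative to H2bc6, H2bc4 was lower after 1 h of degrader by 1.56, H2bc21 by 1.5 and H2bc22 by 1.99 (log2 ratio, exact p = 0.10 and 0.143 after adjustment over the 10 pairs for each), without overlap of the groups. H1f0 relative to H2bc6 changed by only -0.26 (exact p = 0.10). Between H2bc4 and H2bc21, which lie in different clusters, the ratio moved by -0.06 and the groups overlapped (exact p = 0.600). H2bc6 also has the longest span, and whether span bears on the size of its change was not tested.

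Genes around the members were counted in the same way. Of 27 listed non-histone neighbours of the chromosome 13 cluster 14 were tested, and after 1 h of degrader 2 were higher, near the 14.7% of all genes called higher, and 0 were lower, where 10.9% of all genes were. Btn1a1 (butyrophilin, a milk fat protein) rose by 1.06 (SE 0.17) and Cmah, a sialic acid hydroxylase, by 1.05 (SE 0.22). Of 8 tested histone variant genes that are not in the rule, 6 were lower, with H2ax (the damage-signalling H2A) at -1.13 (SE 0.14, adjusted p = 8.59e-08), H2aj at -0.79 (SE 0.14) and H3f3b, which encodes H3.3, at -0.66 (SE 0.09). Cenpa, the centromeric H3, was at -0.03 (SE 0.04) and H2az1 at 0.10 (SE 0.19), neither of them called.

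Of 17 tested genes for histone pre-mRNA processing 2 were higher and 3 lower after 1 h of degrader, where 25.6% of all genes were called in either direction, with a median of -0.05, and Slbp, the stem-loop binding protein, was at -0.26 (SE 0.05, adjusted p = 1.04e-04). Of 17 tested genes listed as regulators of histone genes, which are transcription factors and the cell cycle genes Ccne1, Ccne2 and Cdk2, 1 was higher and 3 lower. E2f2, an activator of S phase genes, was the one that rose, by 1.53 (SE 0.07, adjusted p = 2.19e-18). The lower ones were Cdk2, a cell cycle kinase, at -0.24 (SE 0.09, adjusted p = 0.0484), and the transcription factors E2f3 (-0.17, SE 0.03) and Yy1 (-0.17, SE 0.04). Of 20 replication genes 1 was higher (Cdc6, the origin licensing factor, 0.75, SE 0.06) and 6 lower, with a median of -0.10. The lower ones included Rrm2, a subunit of ribonucleotide reductase, at -0.42 (SE 0.08). The gene lists overlap, so a gene can count in several of them. The part of the cell cycle in the falls of the members was not tested. Among 8 tested erythroid and MEL markers 6 were higher after 1 h of degrader, Spi1 not among them (-0.06, SE 0.06). Of the 2 tested megakaryocyte markers none was called (Gp1ba at -0.13, SE 0.38, and Itga2b at 0.04, SE 0.07).

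Inhibition of p300 and CBP by A485 was accompanied by lower transcription of the same 5 genes. In the 1 h group H2bc22 had 45.9, 77.6 and 50.9 normalized counts, against 359, 345 and 272 in DMSO, and fell by 2.49 (SE 0.23, adjusted p = 1.94e-11). H2bc21 had 178, 216 and 198 and fell by 2.21 (SE 0.17, adjusted p = 1.20e-13), and H2bc4 had 517, 519 and 440 and fell by 1.55 (SE 0.13, adjusted p = 4.05e-12). None of these groups overlapped with DMSO. H2bc6, at 3241, 3499 and 3925, fell by 0.89 (SE 0.11, adjusted p = 1.04e-08), and H1f0, at 500, 533 and 516, fell by 0.79 (SE 0.07, adjusted p = 4.26e-11). The count of 5 of 5 stands against 33.2% of all genes called lower at 1 h of A485.

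At 15 min of A485 4 of 5 members were lower (29.3% of all genes) and at 30 min 5 of 5 (31.0% of all genes). H2bc6 was the one not called at 15 min, with 5095, 5585 and 7245 normalized counts that overlapped with DMSO (log2 change -0.16, SE 0.11, adjusted p = 0.224). Without the highest of these libraries, replicate 6, its change was -0.31 and was called (adjusted p = 0.0167). At 30 min H2bc6 had 2579 and 3208 and had fallen by 1.20 (SE 0.12, adjusted p = 2.73e-10). Relative to H2bc6, H2bc21 was lower after 1 h of A485 by 1.31 and H2bc22 by 1.60 (log2 ratio, exact p = 0.10 for each), and H1f0 relative to H2bc6 moved by 0.11 with overlapping groups (exact p = 0.300). The A485 libraries of 30 min and 1 h carry replicate numbers 1 to 3 and DMSO carries 4 to 6; whether they were prepared at different times is not labelled, and such a difference and the treatment cannot be told apart. A485 for 15 min carries the same numbers as DMSO.

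Of the 14 tested non-histone neighbours 9 were higher after 1 h, against 29.4% of all genes, and 2 lower, with a median of 0.22. Zfp184, a zinc finger gene, rose by 1.15 (SE 0.13) and Btn2a2 by 1.13 (SE 0.20), whereas Slc17a4, a phosphate transporter gene, fell by 2.16 (SE 0.27) and Cmah by 0.57 (SE 0.22). Histone variant genes outside the rule went down with the members: 7 of 8 were lower, H2ax by 1.41 (SE 0.14), H3f3b by 1.25 (SE 0.09) and H3f3a by 0.78 (SE 0.05). Of the 20 replication genes 10 were higher and 3 lower, and Cdc6 fell by 1.21 (SE 0.06). Of the 17 listed regulators of histone genes 3 were higher (Ccne2, Gon4l and Nfyc) and 11 lower, Ccne1 and Cdk2 among them. Nfya, the DNA-binding NF-Y subunit that reads CCAAT, was at -0.53 (SE 0.04) and Pou2f1 (Oct-1) at -0.47 (SE 0.04). All 8 tested erythroid and MEL markers were lower as well, with a median of -2.25, Spi1 included (-2.42, SE 0.06). Both tested megakaryocyte markers were also lower, Gp1ba at -6.12 (SE 0.38) and Itga2b at -2.60 (SE 0.07). The part of these marker genes in the members' falls was not tested.

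When degrader was added together with A485, little further change was seen. At 15 min 0 of 5 members were called between both agents and A485 alone by limma, as were 0.881% of all genes. H2bc4 and H2bc6 had an unadjusted p under 0.05 there, and edgeR also called 0. At 30 min H2bc4 was higher with both agents (588 and 665 normalized counts) than with A485 alone (374 and 372), by 0.74 (SE 0.16, adjusted p = 0.00864), where 1.31% of all genes were called higher. At 1 h H2bc6 was higher with both agents (4646, 4869 and 4133) than with A485 alone (3241, 3499 and 3925), by 0.36 (SE 0.11, adjusted p = 0.0397), against 4.56% of all genes. The groups did not overlap. That last call was lost without A485 replicate 1 (0.29, adjusted p = 0.148), without A485 replicate 2 (0.35, adjusted p = 0.0903), without both-agents replicate 1 (0.34, adjusted p = 0.122) and without both-agents replicate 2 (0.31, adjusted p = 0.179). It was also lost with edgeR (0.34, adjusted p = 0.0857).

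The interaction compares the effect of the degrader in the presence of A485 with its effect alone. At 1 h all 5 members had a positive interaction, where 4.99% of all genes did: 2.41 for H2bc22 (SE 0.32, adjusted p = 3.25e-06), 2.17 for H2bc4 (SE 0.19, adjusted p = 1.33e-09) and 1.75 for H2bc21 (SE 0.23, adjusted p = 3.28e-06). H2bc6 followed at 0.76 (SE 0.15, adjusted p = 9.74e-04) and H1f0 at 0.43 (SE 0.11, adjusted p = 0.00576). For H2bc22 the degrader alone had left 51.2, 101.0 and 43.1 normalized counts, A485 alone 45.9, 77.6 and 50.9, and both together 59.7, 56.8 and 56.1. The 3 groups overlapped, all far below DMSO. For H2bc21 both agents left 152, 209 and 172, which overlapped with the 178 to 216 of A485 alone. At 30 min H2bc4 (1.88, SE 0.21), H2bc22 (1.74, SE 0.36) and H2bc21 (1.62, SE 0.26) had a positive interaction, against 3.69% of all genes, and at 15 min only H2bc4 (0.69, SE 0.19, adjusted p = 0.0234), against 1.91%. The interactions at the 3 times share the DMSO libraries, and each shares its A485 libraries with the comparison of both agents and A485 at that time.

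**Figure D2:**
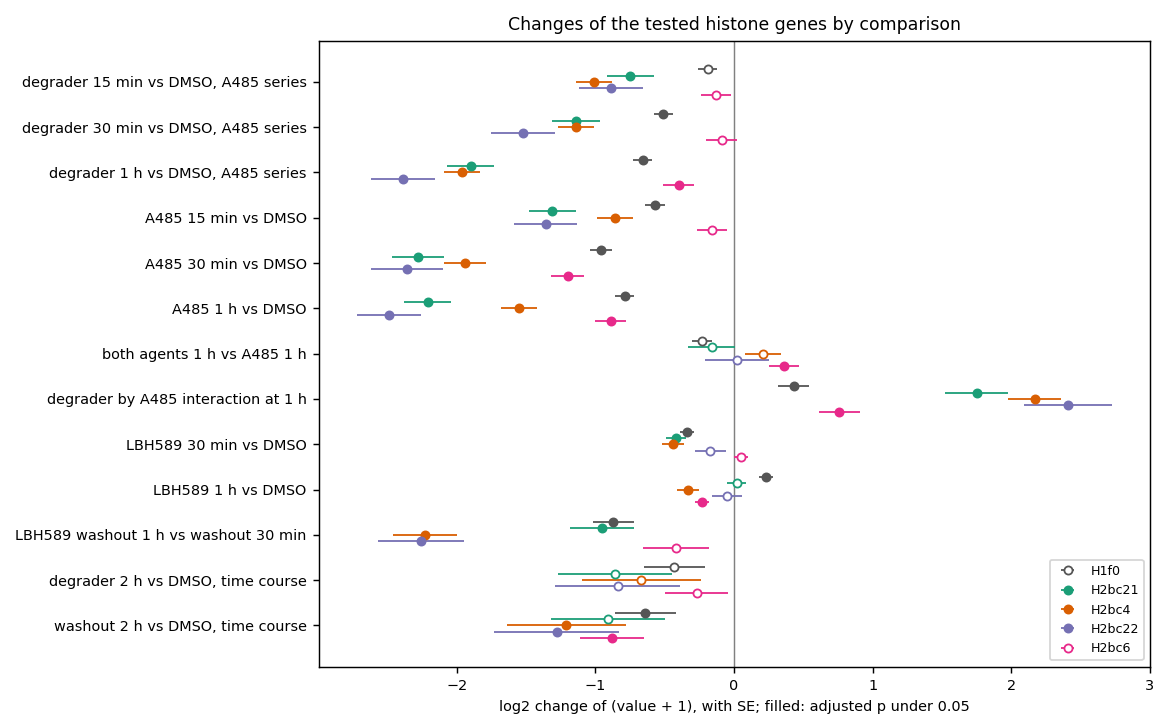
Change of each tested member on the log2(value + 1) scale (horizontal axis) with its SE, for 13 comparisons. Filled circles passed an adjusted p of 0.05. The 3 H2B genes other than H2bc6 lie between -1.55 and -2.49 after 1 h of degrader or of A485, and between 1.75 and 2.41 in the interaction at 1 h.

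The time course of degrader alone gave smaller changes, all with the same sign as in the A485 series for the 2 h group. After 2 h the changes were -0.86 (SE 0.41) for H2bc21, -0.84 (SE 0.45) for H2bc22, -0.67 (SE 0.43) for H2bc4, -0.43 (SE 0.22) for H1f0 and -0.27 (SE 0.23) for H2bc6. None was called by limma, with 2.63% of all genes called lower, none had an unadjusted p under 0.05, and edgeR called 0. H2bc21 had 1117, 1265 and 1430 normalized counts in DMSO and 614 and 794 in the libraries labelled degrader for 2 h. H2bc22 had 398, 354 and 570 in DMSO and 232 and 251 with degrader, and H2bc4 had 1978, 1960 and 2859 against 1256 and 1552. The groups did not overlap in these 3 genes. H2bc6 did not overlap either (7028, 7965 and 8424 against 6281 and 6676), while H1f0 did (885, 1088 and 1306 against 684 and 940).

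For 1 h and 2 h of degrader, leaving out the libraries that lay far from their own groups changed the calls but not the log2 changes. None of them is in DMSO or in degrader 2 h, so the changes stayed as they were while the SE of H2bc21 went from 0.41 to 0.13. All 5 members were then called lower after 2 h, where 14.1% of all genes were: H2bc21 with an adjusted p of 3.86e-05, H2bc22 with 0.00285, H2bc4 with 0.00394, H1f0 with 0.0304 and H2bc6 with 0.0392. At 1 h 0 members were called with all libraries (3.13% of all genes lower; H1f0 had an unadjusted p under 0.05; edgeR called 0) and 4 without these libraries (15.1% of all genes lower), namely H2bc22 at -0.74 (SE 0.18), H1f0 and H2bc4 each at -0.58 and H2bc21 at -0.46 (SE 0.12). H2bc6 was at -0.00 (SE 0.09). The time course and the A485 series were normalized separately, and the difference between their changes was not tested.

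At 30 min of degrader in the time course the outcome rested on 1 library. H2bc4 had 2117, 2278 and 535 normalized counts, H2bc22 had 327, 392 and 89.1, and H2bc21 had 1007, 1065 and 262. The low value was replicate 3 in each gene, the library that lay nearest to a 30 min washout library. With it 0 members were called (5.17% of all genes lower; H1f0, H2bc21 and H2bc22 had an unadjusted p under 0.05; edgeR called 0). Without these libraries H2bc4 changed by -0.02 (SE 0.17), where it had changed by -0.70 (SE 0.39) with them, and H1f0 alone was called, at -0.61 (SE 0.15, adjusted p = 0.00453), against 8.87% of all genes. At 15 min 0 members were called in either case, against 1.04% of all genes with all libraries and 13.7% without these libraries, and with all libraries none had an unadjusted p under 0.05 and edgeR called 0.

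**Figure D3:**
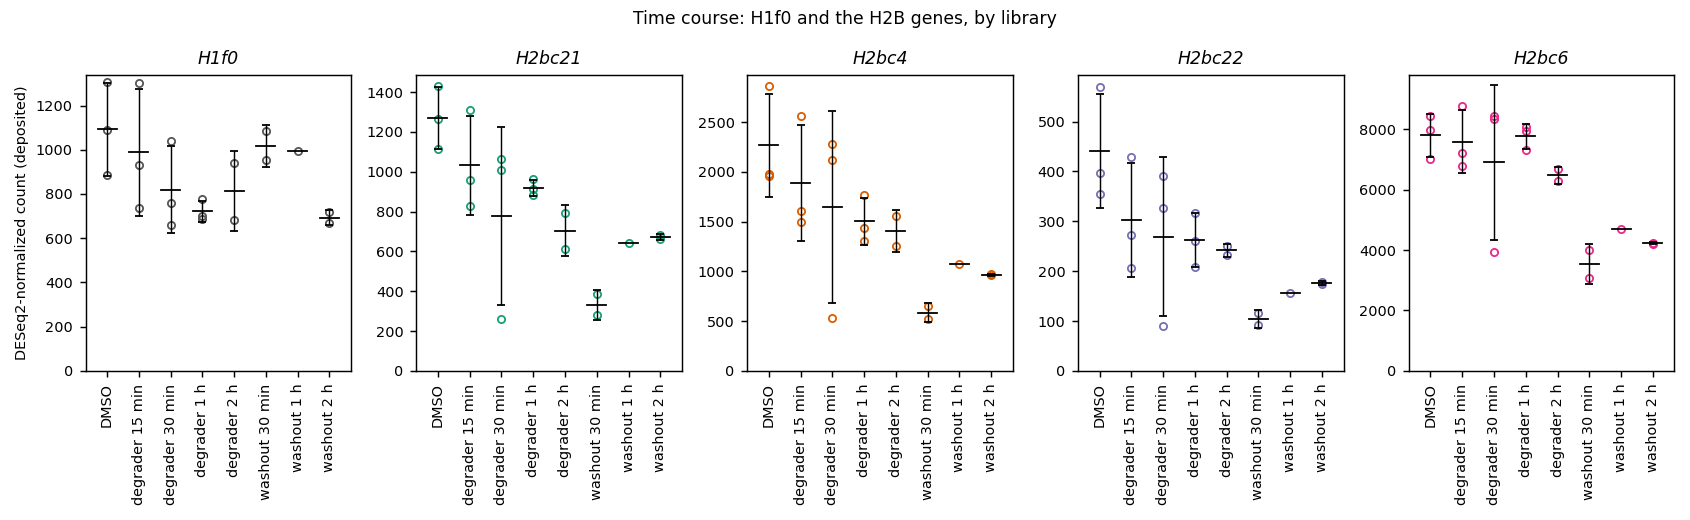
Deposited DESeq2-normalized counts (vertical axes, each from 0) of the 5 tested members in the time course, by group. Circles are libraries, bars are group means and whiskers are the SD. One library of the 30 min degrader group lies far below the other 2 in all 4 H2B panels, and the 30 min washout libraries are the lowest of the washout groups there.

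At 2 h of washout the members lay below the DMSO level, although H1f0 had been within its DMSO range earlier. H1f0 had 952 and 1084 normalized counts at 30 min of washout and 996 at 1 h (1 library). Its DMSO range was 885 to 1306. After 2 h of washout H2bc6 had 4197 and 4247 normalized counts, against 7028, 7965 and 8424 in DMSO, and was lower by 0.88 (SE 0.23, adjusted p = 0.00769). H2bc22 (174 and 179) was lower by 1.28 (SE 0.45, adjusted p = 0.0351), H2bc4 (959 and 969) by 1.21 (SE 0.43, adjusted p = 0.0376) and H1f0 (669 and 718) by 0.64 (SE 0.22, adjusted p = 0.0333). These 4 of 5 members stand against 17.5% of all genes. H2bc21, at 662 and 685 against 1117, 1265 and 1430, changed by -0.91 (SE 0.41, adjusted p = 0.0900). None of the 5 overlapped with DMSO. Without these libraries all 5 were called, where 26.9% of all genes were lower.

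Against the libraries labelled degrader for 2 h, H2bc6 alone was called lower at 30 min of washout and no member was called later in the washout. At 30 min of washout H2bc6 had 3076 and 4018, against 6281 and 6676 after 2 h of degrader, and was lower by 0.88 (SE 0.25, adjusted p = 0.0251), with 13.8% of all genes called lower. H2bc4 (518 and 651 against 1256 and 1552, log2 change -1.27, SE 0.47), H2bc22 (-1.22, SE 0.50) and H2bc21 (-1.09, SE 0.45) had adjusted p values of 0.0615, 0.0793 and 0.0810. Without these libraries all 4 H2B genes were called lower, where 26.3% of all genes were, and H1f0, at 0.34 (SE 0.16, adjusted p = 0.0833), was not called. At 1 h of washout, where the 1 library of the gene table is assumed to vary like the other groups, 0 members were called (5.37% of all genes lower, none of the members at an unadjusted p under 0.05, edgeR 0). Without these libraries H2bc6 was lower at 1 h of washout by 0.46 (SE 0.13, adjusted p = 0.00843), against 20.0% of all genes. At 2 h of washout 0 were called against degrader 2 h (8.30% of all genes lower; H2bc6 had an unadjusted p under 0.05; edgeR called 0), and without these libraries H2bc4 (-0.53, SE 0.18) and H2bc6 (-0.62, SE 0.10) were, against 20.8% of all genes.

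Inhibition of deacetylases by LBH589 was accompanied by changes of the members that differed by gene. The LBH589 libraries carry replicate numbers 1 to 3 and their DMSO libraries 7 to 9. Whether they were prepared at different times is not labelled, and such a difference and the treatment cannot be told apart. After 30 min 3 members were lower, against 21.9% of all genes: H2bc4 by 0.44 (SE 0.08, adjusted p = 1.01e-04), H2bc21 by 0.42 (SE 0.07, adjusted p = 9.00e-06) and H1f0 by 0.34 (SE 0.05, adjusted p = 2.31e-06). H2bc4 had 1554, 1515 and 1582 in DMSO and 1440, 947 and 1095 after 30 min, H2bc21 had 1178, 1121 and 1114 against 971, 728 and 874, and H1f0 had 1359, 1417 and 1356 against 1176, 1076 and 1017. None of these overlapped. The call of H2bc4 was lost without the filter on low values (adjusted p = 0.0659). H2bc22 changed by -0.17 (SE 0.11, adjusted p = 0.220), and by -0.30 (adjusted p = 0.0276) without LBH589 30 min replicate 1. H2bc6 was at 0.05 (SE 0.05, adjusted p = 0.454).

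By 1 h of LBH589 H1f0 had turned. It had 1563, 1589 and 1685 normalized counts, above every DMSO library, and was higher by 0.23 (SE 0.05, adjusted p = 1.52e-04), as were 32.4% of all genes. H2bc4 (1123, 1233 and 1341) was lower by 0.33 (SE 0.08, adjusted p = 7.41e-04) and H2bc6 (5838, 6017 and 5508 against 6398, 6934 and 7023) by 0.23 (SE 0.05, adjusted p = 3.45e-04), so that 2 of 5 members were lower, near the 34.6% of all genes. Neither overlapped with DMSO, and both calls were lost without the filter on low values (adjusted p = 0.0953 for H2bc4 and 0.0662 for H2bc6). H2bc21 (0.02, SE 0.07) and H2bc22 (-0.05, SE 0.11) were not called. Between 30 min and 1 h H1f0 rose by 0.57 (SE 0.05, adjusted p = 7.13e-11) and H2bc21 by 0.44 (SE 0.07, adjusted p = 1.35e-06), against 27.3% of all genes, and H2bc6 fell by 0.28 (SE 0.05, adjusted p = 4.12e-05), against 29.6%. Among the histone variant genes 1 of 8 was higher at 1 h (H2az2, 0.75, SE 0.07) and 7 were lower, and of the 20 replication genes 3 were higher and 13 lower. Of 8 erythroid and MEL markers 7 were lower, Spi1 among them (-1.01, SE 0.04), with a median of -0.44 over the 8. All 3 tested megakaryocyte markers were lower (Gp1ba at -1.34, SE 0.10, Gp9 at -0.93, SE 0.32, and Itga2b at -0.71, SE 0.03). The part of these genes in the changes of the members was not tested.

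In the LBH589 washout series 4 of 5 tested members, 3 of the 4 H2B genes and H1f0, were lower at 1 h than at 30 min of washout. H2bc22 had 83.1, 113 and 150 normalized counts at 30 min and 21.1, 32.7 and 16.4 at 1 h, a fall of 2.26 (SE 0.31, adjusted p = 0.00216). H2bc4 went from 359, 498 and 560 to 95.2, 73.6 and 134, by 2.23 (SE 0.23, adjusted p = 9.46e-04). Neither pair of groups overlapped. H2bc21 went from 116, 199 and 206 to 86.0, 95.8 and 78.7, by 0.95 (SE 0.23, adjusted p = 0.0172), and H1f0 from 308, 389 and 327 to 166, 180 and 213, by 0.87 (SE 0.15, adjusted p = 0.00450), again without overlap. These 4 stand against 10.1% of all genes lower. The call of H2bc21 was lost without the filter on low values and without 30 min washout replicate 2 (-0.83, adjusted p = 0.0909) or replicate 3 (-0.80, adjusted p = 0.0905).

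H2bc6 was not called, with 1592, 2123 and 2219 at 30 min and 1022, 1349 and 2284 at 1 h, overlapping groups, and a change of -0.42 (SE 0.24, adjusted p = 0.234). It was called with a replicate block (adjusted p = 0.0460). Without 1 h washout replicate 3, the library that stands apart and the highest in H2bc6 at 1 h, all 5 members were called lower, against 17.3% of all genes: H2bc4 by 2.46 (SE 0.16, adjusted p = 8.01e-09), H2bc22 by 2.05 (SE 0.26, adjusted p = 1.03e-05), H1f0 by 0.97 (SE 0.13, adjusted p = 1.61e-05), H2bc21 by 0.88 (SE 0.21, adjusted p = 0.00288) and H2bc6 by 0.74 (SE 0.11, adjusted p = 9.07e-05). Relative to H2bc6, H2bc4 was lower at 1 h by 1.82 and H2bc22 by 1.85 (log2 ratio, exact p = 0.10, the smallest possible, and 0.167 after adjustment over 10 pairs). H2bc4 relative to H2bc22 moved by 0.03 with overlapping groups (exact p = 0.900). Of the non-histone neighbours 2 of 14 were higher (13.2% of all genes), Zscan26 by 0.86 (SE 0.17) and Zkscan3 by 0.34 (SE 0.09), and 0 were lower. Without a DMSO group in this series, LBH589 and washout time cannot be told apart.

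**Figure D4:**
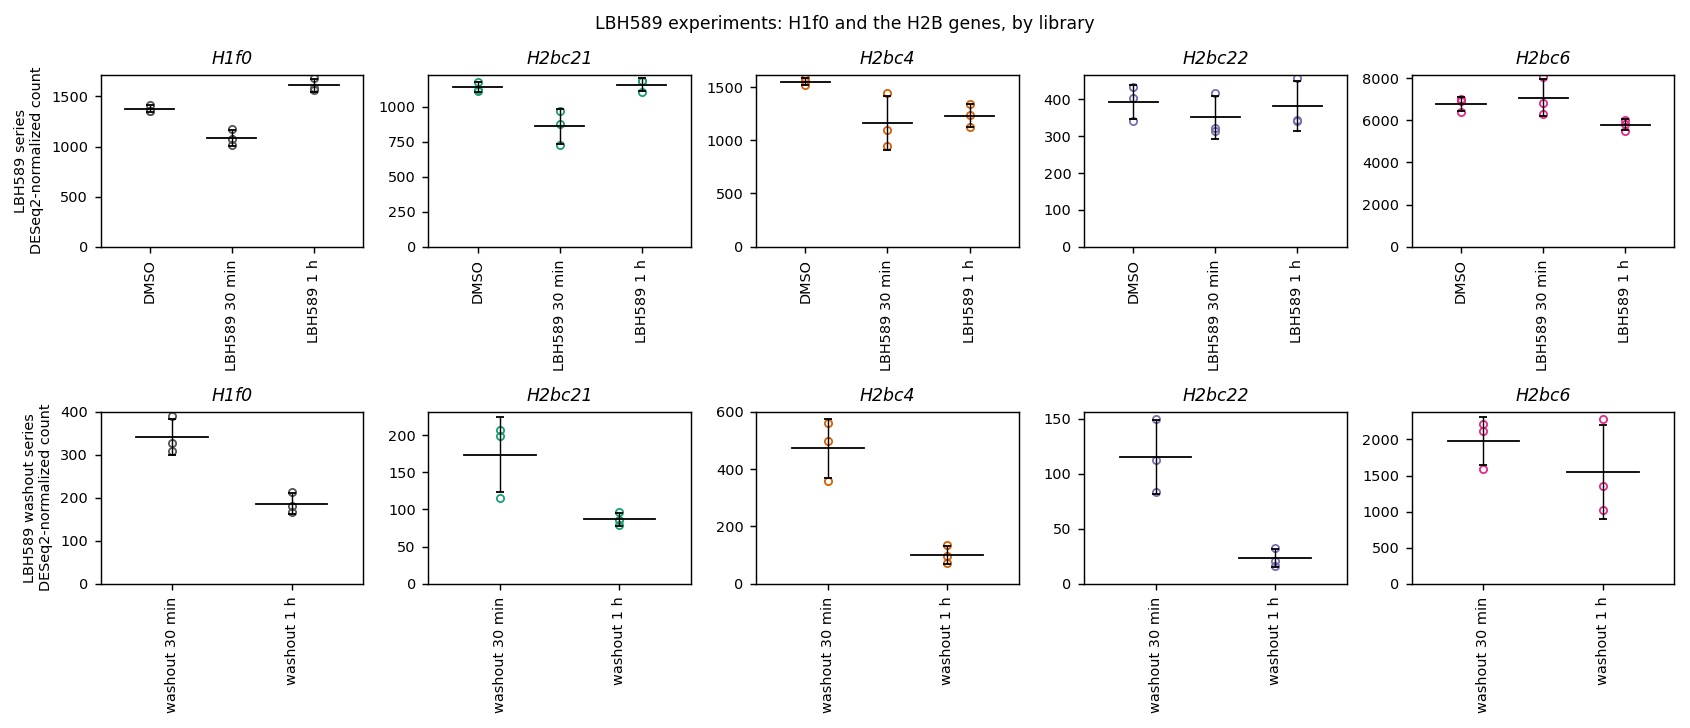
Deposited DESeq2-normalized counts (vertical axes, each from 0) of the 5 tested members in the LBH589 series (upper row) and the LBH589 washout series (lower row). Circles are libraries, bars are group means and whiskers are the SD. H1f0 dips at 30 min of LBH589 and lies above DMSO at 1 h, and in the washout series H2bc4 and H2bc22 drop from 30 min to 1 h while the H2bc6 groups overlap.

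The chromosome 13 cluster could also be read through dREG sites, transcribed regulatory elements recognised from run-on signal. Sites of the window around the cluster on chromosome 13 (first start 21552121, last end 23927460, mm39 per the submitters' processing notes, not comparable with the GRCm38.p6 positions above) numbered 34 in the A485 and both LBH589 series and 28 in the time course, between 180 and 2570 bp wide. No mm39 annotation was used, so they are given without a gene. The strongest pair was at chr13:23715831-23717730 and chr13:23720261-23722260. In the A485 series the first had 4182, 3759 and 3937 normalized counts in DMSO and 1636, 1586 and 1325 after 1 h of degrader, a fall of 1.39 (SE 0.09, adjusted p = 3.64e-14). The second went from 3700, 3562 and 3469 to 1088, 1039 and 683, a fall of 1.96 (SE 0.13, adjusted p = 6.12e-14). Both were clear of DMSO.

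Of 26 window sites tested in the A485 series, 13 were lower after 1 h of degrader, against 10.4% of all sites, and 2 higher, against 16.2%. The median change was -0.72, and over all sites 0.01. The largest fall was at chr13:23741061-23741380, from 968, 893 and 831 to 79.4, 55.0 and 77.7, by 3.66 (SE 0.18, adjusted p = 1.17e-17). The largest rise was at chr13:23642781-23644560, from 63.1, 106 and 136 to 216, 234 and 224, by 1.20 (SE 0.18, adjusted p = 2.96e-06), and neither site's groups overlapped. Numbered 1 to 34 by position, the lower sites were sites 10 to 14, 16, 17, 22 to 26 and 34. The third site by mean, chr13:23000441-23001900, fell by 0.54 (SE 0.14, adjusted p = 0.00430).

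Under 1 h of A485 14 of the 26 were lower, against 24.0% of all sites, and 7 higher, against 18.9%, with a median of -0.99. Site chr13:23741061-23741380 had 95.8, 76.0 and 88.2 and was lower by 3.36 (SE 0.18, adjusted p = 1.44e-17). The fall of 3.58 (SE 0.51, adjusted p = 4.53e-07) at chr13:23776461-23776890 was larger but at a low level, from 29.3, 18.9 and 29.4 to 0, 1.41 and 3.46. The largest rise was at chr13:21591911-21593300, from 23.8, 27.8 and 37.2 to 99.2, 120 and 95.1, by 1.80 (SE 0.24, adjusted p = 9.07e-08). None of the 3 overlapped with DMSO. Between both agents and A485 alone at 1 h 1 site was higher (3.98% of all sites) and 2 lower (2.02%). In the interaction at 1 h 13 sites were higher (6.53% of all sites), led by chr13:23741061-23741380 at 3.86 (SE 0.25, adjusted p = 3.58e-13), and 4 lower (9.73%), led by chr13:21591911-21593300 at -1.49 (SE 0.34, adjusted p = 0.00247). In either direction 17 of 26 window sites were called at 1 h (16.3% of all sites), 12 at 30 min (3.89%) and 1 at 15 min (0.0657%).

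**Figure D5:**
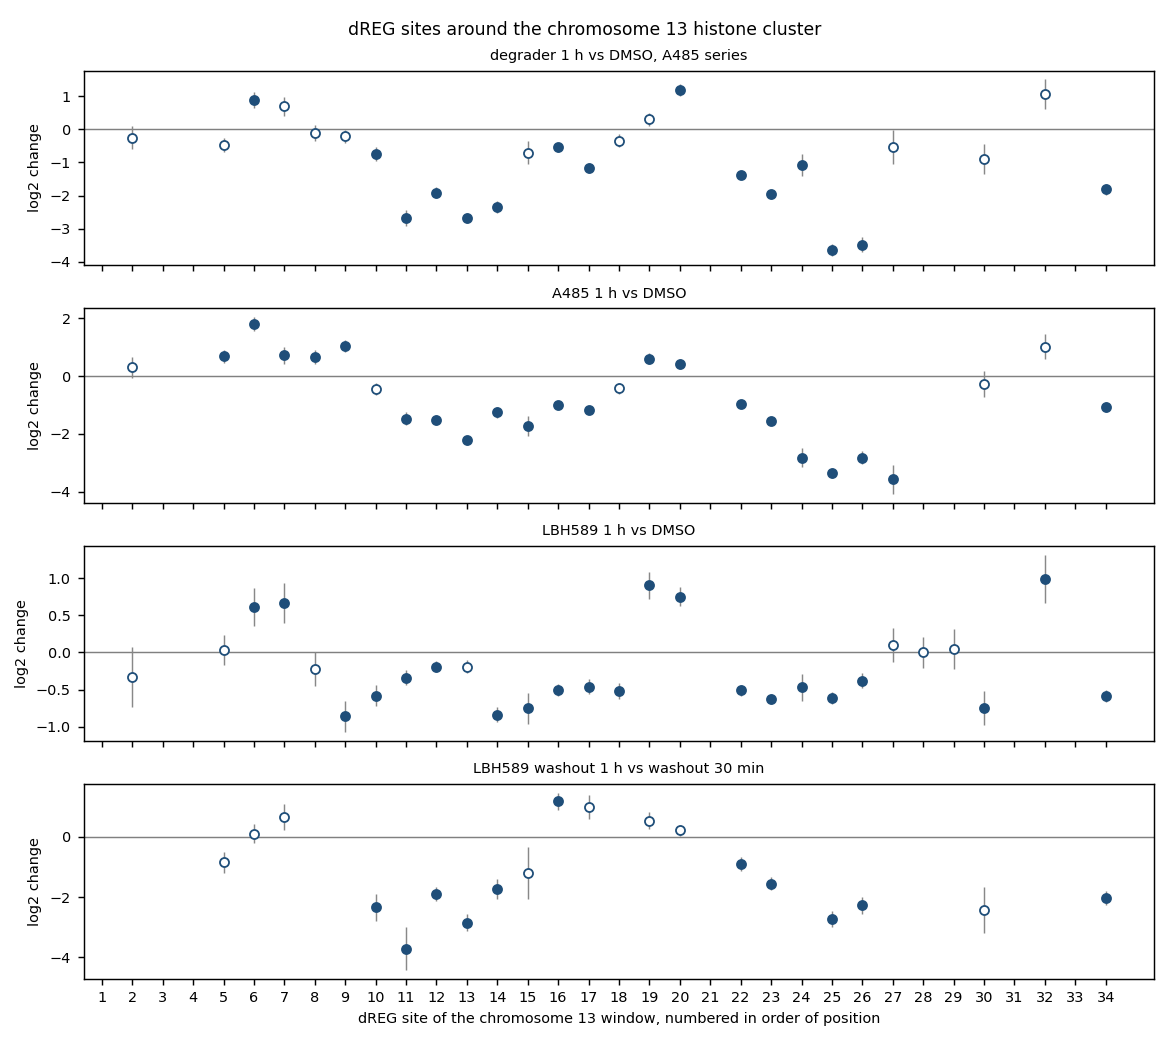
Change of the tested dREG sites of the chromosome 13 window on the log2(value + 1) scale (vertical axes, differently scaled), with the SE, in 4 comparisons. Sites are numbered by position, and filled circles passed an adjusted p of 0.05. Sites 10 to 14 and 22 to 26 are all lower after 1 h of degrader, and sites 20 (1.20) and 6 (0.88) are higher.

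In the time course 5 of 28 window sites were called after 2 h of degrader, 4 lower (1.58% of all sites) and 1 higher (8.92%). The largest fall, 1.89 (SE 0.31, adjusted p = 1.04e-04), was at chr13:23002101-23002560, from 241, 297 and 283 to 55.0 and 95.8, without overlap. Site chr13:23642781-23644560 rose there too, from 123, 117 and 131 to 205 and 186, by 0.66 (SE 0.16, adjusted p = 0.00626). Without the 3 libraries far from their own groups, 13 were lower (4.75% of all sites) and 1 higher (12.7%).

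In the LBH589 series 11 of 28 tested window sites were lower than in DMSO after 30 min, against 8.93% of all sites. After 1 h 16 were lower (19.0%) and 5 higher (17.4%). At 1 h the strongest pair fell by 0.51 (SE 0.07) and 0.63 (SE 0.07). The third site by mean in this series, chr13:23741061-23741380, had 4569, 3710 and 5091 in DMSO, 2098, 1858 and 1593 at 30 min and 2868, 2892 and 2910 at 1 h, so that it was lower than in DMSO by 1.27 (SE 0.08) at 30 min and by 0.61 (SE 0.08) at 1 h, with no overlap. The largest fall at 1 h was 0.86 (SE 0.21, adjusted p = 0.00121) at chr13:21693771-21694240, from 69.6, 46.6 and 45.8 to 24.3, 30.0 and 32.3. The largest rise was 0.99 (SE 0.32, adjusted p = 0.0114) at chr13:23908331-23908930, from 18.1, 9.10 and 7.46 to 22.6, 22.8 and 21.8.

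In the LBH589 washout series 10 of 19 tested window sites were lower at 1 h than at 30 min of washout, against 2.70% of all sites, and 1 was higher, against 2.83%, with a median of -1.56 over the window and -0.00 over all sites. Without 1 h washout replicate 3, 12 of 20 tested were lower (7.47% of all sites) and 1 higher (6.47%), with a median of -1.37. With all libraries site chr13:21932491-21932960 fell most, from 38.6, 73.6 and 68.3 to 8.45, 8.63 and 0, by 3.71 (SE 0.70, adjusted p = 0.0172). The value of 0 is that of 1 h washout replicate 3. Without that library the log2 change of this site was -2.63 (SE 0.31), and it no longer fell most. The largest fall was then at site 10 by position (log2 change -2.94, SE 0.33). With all libraries the strongest pair fell by 0.90 (SE 0.22) and 1.56 (SE 0.22). The rise was at chr13:23000441-23001900, from 19.3, 32.0 and 26.4 to 46.7, 60.4 and 71.9, by 1.18 (SE 0.28, adjusted p = 0.0326). That site was lower than in DMSO after 1 h of degrader, of A485 and of LBH589 (log2 change -0.51, SE 0.08, for LBH589).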

How the data were processed

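Per the labels, the authors deposited, per transcript and per dREG site, a signal in the form of DESeq2-normalized counts. Named in the submitters' processing notes are featureCounts 2.0.1, DESeq2 1.46.0, Bowtie2 2.2.2, HOMER, SAMtools 1.16.1 and bedtools, and the builds mm39 and dm3, with no roles given. Which interval was counted is not given in the sources used here. Normalization to the typical gene hides any change shared by most genes. Dividing each value by its library's smallest step left whole reads throughout (100% of values, tolerance 0.1), which gave the depth and the input of edgeR.

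Tests used limma 3.58.1 (R 4.3.3; lmFit and trended eBayes over all groups of a table) for features averaging 10 or more, on log2(value + 1), which understates the change of low genes, with Benjamini-Hochberg adjustment over the whole table and a threshold of 0.05. The fit was tested on simulated data. The interaction is the log2 change between both agents and A485 less the log2 change between degrader and DMSO. Alternatives were edgeR 4.0.16, other scaling, a pseudocount of 10, no filter, a replicate block, summed transcripts, fewer groups and each library left out. Tables were normalized separately and tests stay within a table.

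In the gene table of the time course 2 columns whose library was not settled were left out, and 1 empty column of the series was not used, so that its gene tests rest on 19 libraries and its site tests on 22. Members, gene lists and comparisons were chosen with earlier results of these data known. The text names every tested member, gives all libraries for the 3 largest called rises and falls of each main comparison and for the highest member of each subfamily, and names the 3 window sites with the highest mean and the largest called rise and fall. List genes named beside a count were chosen after their values were seen. Promoter windows were searched with Biopython 1.88, and sequences come from RefSeq.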

Additional observations from a re-analysis of the deposited data

Results flagged for a closer look

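The effect of the degrader in the presence of A485 differed from its effect alone, by the interaction test, for all 5 tested members at 1 h. The log2 differences were 2.41 for H2bc22, 2.17 for H2bc4, 1.75 for H2bc21, 0.76 for H2bc6 and 0.43 for H1f0. At 30 min they were 1.88 for H2bc4, 1.74 for H2bc22 and 1.62 for H2bc21, and at 15 min 0.69 for H2bc4. Of the 26 tested dREG sites of the chromosome 13 window 17 had a called interaction at 1 h, where 16.3% of all sites did, 12 at 30 min (3.89%) and 1 at 15 min (0.0657%). The part of the low levels that either agent alone had already left was not tested.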

How the results depend on the processing

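No call of a member or of a window site count turned its direction under any alternative run. The 2 h degrader comparison of the time course, with 0 members called, gave 5 when only the compared groups were fitted and 5 without the 3 libraries far from their own groups. For 2 h of washout against 2 h of degrader (0 called) these gave 3 and 2. Both agents against A485 at 1 h (1 called) gave 0 without a filter on low values, 0 with edgeR and 0 to 1 with each library left out, and with TMM scaling the 1 call was H1f0 (-0.24, adjusted p = 0.0472), with H2bc6 at an adjusted p of 0.0504. Over all genes the fit of only the compared groups and that without those libraries called more: for 2 h of degrader 3218 and 3951 in place of 1195, and for 2 h of washout against it 6285 and 5472 in place of 2198. LBH589 at 1 h (3 called) gave 1 without the filter. Window sites after 2 h of degrader (5 called) gave 14 with only the compared groups, 14 without the 3 libraries and 3 to 5 with each library left out, the 3 without degrader 2 h replicate 1. Leaving out the libraries labelled degrader 1 h, chosen after seeing the data, moved no count. For the other time course comparisons the counts without the 3 libraries, and those without LBH589 1 h washout replicate 3, were also chosen after seeing the data.

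A replicate block was tried although same-numbered libraries did not deviate together: in the A485 series 4 of 58 same-number pairs correlated above 0.1, in the time course 10 of 36, in the LBH589 series 1 of 3 and in the LBH589 washout series 0 of 3. With the replicate block the members called were 0 for 2 h of degrader in the time course, 5 for 1 h of degrader in the A485 series, 4 for A485 at 15 min, 1 for both agents at 1 h and 5 in the LBH589 washout series, where H2bc6 was added (adjusted p = 0.0460), and 5 window sites were called in the time course. No paired analysis was possible for 2 h of washout against 2 h of degrader, A485 at 1 h against DMSO and LBH589 against DMSO. There the groups share fewer than 2 numbers. For the interaction at 1 h a replicate block was not run. Its groups match only in pairs: both agents and A485 carry numbers 1 to 3, degrader and DMSO 4 to 6.

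H1f8 and H2bc23 had too few counts to be tested, and why their counts were low was not tested. A change of H2bc22 in the LBH589 washout series rests on at most 32.7 normalized counts per 1 h library.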
